A study of Mus musculus with 23 samples.

Results

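The allele series in the epiblast comprised 12 of the 23 RNA-seq pools of the study. These are all its epiblast pools of mouse embryos at stage E6.25 with 0, 1 or 2 gene-trapped copies of Tet1. They were 4 wild-type (wt) pools with 0 trapped alleles, 4 heterozygous pools (Tet1gt/wt) with 1 and 4 homozygous pools (Tet1gt/gt) with 2. The labels name no other allele or agent. Each pool joined lysates of at least 6 embryos taken from 2 to 3 litters and genotyped afterwards, so a value averages embryos and litters, and p-values refer to how far pools of 1 genotype scatter. The insertion site of the trap was not looked up here, as the labels do not name it, and the Tet1 count covers the whole gene, so it does not separate functional transcript from transcript that is trapped. The question addressed is which genes change by steps along the series, rather than between its ends.

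TET1 is a dioxygenase that oxidises 5-methylcytosine, which can lead to removal of DNA methylation, and it also acts with repressive partners such as Polycomb and SIN3A complexes independently of its catalysis. The epiblast is the pluripotent epithelium that gives rise to the embryo proper. Shortly after implantation, around the stage sampled here, it is being patterned by Nodal, BMP and WNT signals, just before mesoderm leaves through the primitive streak.

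Total counts were 5764399 to 9452811 per epiblast pool, and 13333 to 14360 genes had at least 1 count. The 10 epiblast markers, which include Pou5f1, Fgf5 and Otx2, had a mean log2 CPM of 8.33 to 8.76 in all 12 pools (CPM, the count relative to the pool's total, scaled by TMM). Heterozygous pool 4 and homozygous pool 3 stood apart from the rest. They belong to different genotypes, and no wt pool was like them, so this difference is not balanced over the allele series. Short and GC-rich transcripts were higher in both. In these 2 pools log2 expression changed by -0.35 to -0.28 per doubling of transcript length, and by 0.56 to 0.64 per 10 percentage points of GC, against -0.03 to 0.05 and -0.26 to 0.10 in the other 10 pools. Their 79 ribosomal protein genes averaged 9.42 and 9.47 log2 CPM, against 8.01 to 8.40 in the other 10 pools. The trend test over all genes and the called genes are therefore given with all 12 pools and with the 10 others. Other epiblast values are from 12 pools unless stated otherwise. The summed level of 4 tested Y-linked genes also varied, at 131 to 150 CPM in wt pools, 31.1 to 186 CPM in heterozygous pools and 46.3 to 137 CPM in homozygous pools. Fewer cells of a type and less RNA per cell cannot be told apart in bulk pools.

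Tet1 itself fell with the number of trapped alleles. It had 127, 176, 191 and 198 CPM in wt pools, 148, 147, 66.2 and 137 CPM in heterozygous pools, and 69.5, 88.6, 54.9 and 114 CPM in homozygous pools. Each homozygous pool lay below every wt pool, whereas heterozygous pool 4 lay among the homozygous pools. Homozygous pools retained 47.2% of the mean wt level. The slope of log2 CPM was -0.56 per trapped allele (two-sided exact permutation test over 34650 assignments of the pools, p = 0.0056). Without heterozygous pool 4 and homozygous pool 3 it was -0.46 (p = 0.0019 over 4200 assignments, exact permutation test). In edgeR's quasi-likelihood test across all genes the slope was -0.54 ± 0.13 (SE), with an adjusted p of 0.646, so among 12405 genes Tet1 did not pass the threshold of 0.05. DESeq2 gave Tet1 an adjusted p of 0.0525 with 12 pools and of 3.62e-04 with 10. Tet3, Dnmt1, Dnmt3a and Uhrf1, enzymes and a cofactor of DNA methylation and its removal, had slopes of 0.09, -0.08, 0.01 and -0.01. Dnmt3b had 6230 to 7750 CPM in wt pools, 4164 to 7895 CPM in heterozygous pools and 4542 to 6306 CPM in homozygous pools. Dnmt3l had 9.55 to 19.9, 9.42 to 40.4 and 7.39 to 16.6 CPM in that order, and Tet2 0.988 to 8.59, 0 to 4.19 and 1.27 to 7.03 CPM. Of 14 tested TET and DNA methylation enzyme genes, 1 (7.14%) was lower at an unadjusted p under 0.05 (edgeR), against 2.01% of all genes. That 1 was Tet1 itself, the trapped gene, so the share is no result about the other members. With 10 pools it was 3 (21.4%, against 3.67%), Tet1 among them. In both fits 0 were higher and 0 were called.

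Along the series, 3 genes passed the test, all of them higher with each trapped allele. They were Bin1, Sirpa and Barx1, 0.0242% of 12405 genes tested, and 0 genes (0.00%) were called lower (edgeR quasi-likelihood slope test, Benjamini-Hochberg adjusted p under 0.05). At an unadjusted p under 0.05 there were 574 genes, 4.63% of those tested, with 325 (2.62%) higher and 249 (2.01%) lower. None of the 3 was called once the level of maternal decidua and blood markers was a covariate, where the adjusted p was 0.113 for Bin1, 0.408 for Sirpa and 0.408 for Barx1 (edgeR). When the level of Y-linked genes entered the fit instead, it was 0.00435 for Bin1, 0.0197 for Sirpa and 0.0568 for Barx1. With pool number as a replicate block, 0 genes were called, and the adjusted p was 0.135 for Bin1, 0.359 for Sirpa and 0.756 for Barx1 (edgeR). With GC and length correction added to the block, Bin1 alone was called (adjusted p = 0.0162). On the same 12 pools, without a covariate or block, DESeq2 called 14 genes higher and 3 lower. Bin1 and Sirpa were called higher by limma-voom, and Bin1, Sirpa and Barx1 by limma-trend. Both limma fits called 0 genes lower. Group means of all genes were in allele order for 39.4% with 12 pools, and for 36.1% with 10. Homozygous pools all lay above the wt pools for 2.45% of genes and all below them for 2.01%. With 10 pools, 4 of 12658 genes (0.0316%) were called, all higher, namely Bin1, Cd44, Sirpa and Tbc1d4, and 0 genes (0.00%) lower. With 916 genes (7.24%) at an unadjusted p under 0.05, 452 (3.57%) were higher and 464 (3.67%) lower. The group means of all 5 called genes were in allele order.

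Promoter sequence from the RefSeq table is shown for the called genes Barx1, Cd44 and Tbc1d4, because TET1 acts on methylated CpG sites. None is shown for the called genes Bin1 and Sirpa, so their CpG content is not given. The stretches cover 200 bases, from 250 to 51 bases before the transcription start annotated in RefSeq, on build GRCm38.p6. They run 5′ to 3′ on the gene's strand, with each CpG in capitals. Gene positions given below are from GENCODE, whose start of Barx1 differs from that of RefSeq and lies nearer to the stretch.
Barx1: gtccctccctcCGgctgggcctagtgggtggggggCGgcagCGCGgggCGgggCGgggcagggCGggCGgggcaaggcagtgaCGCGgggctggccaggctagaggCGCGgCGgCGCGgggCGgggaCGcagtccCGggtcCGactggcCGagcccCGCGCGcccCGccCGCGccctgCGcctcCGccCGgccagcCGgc
Cd44: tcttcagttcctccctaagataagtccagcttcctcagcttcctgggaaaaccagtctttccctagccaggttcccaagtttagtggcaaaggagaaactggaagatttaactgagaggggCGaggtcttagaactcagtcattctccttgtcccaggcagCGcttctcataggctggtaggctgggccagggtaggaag
Tbc1d4: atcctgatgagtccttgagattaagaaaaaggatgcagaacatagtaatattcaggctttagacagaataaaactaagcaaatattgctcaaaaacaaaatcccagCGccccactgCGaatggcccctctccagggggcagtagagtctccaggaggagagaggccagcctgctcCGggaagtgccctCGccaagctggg
They lie at chr13:48662786-48662985 (plus strand), chr2:102901716-102901915 (minus strand) and chr14:101609242-101609441 (minus strand), in the order shown. The motif searched was CG, which reads the same on both strands. It occurred 30 times for Barx1, 2 times for Cd44 and 4 times for Tbc1d4. Over 32851 RefSeq stretches of the same kind the median was 4, and 89.1% held at least 1. At least 30 occurred in 2.09% of them, at least 2 in 75.4% and at least 4 in 54.2%. Of the 103 genes named here by the rule in the methods, 80 had an entry.

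Bin1, which encodes a BAR-domain adaptor that bends membranes in endocytosis (chr18:32377230-32435737, plus strand), had the smallest trend p of all genes with 12 pools. Its levels were 25.4, 38.3, 33.8 and 30.4 CPM in wt pools, 50.3, 53.0, 51.0 and 54.3 CPM in heterozygous pools, and 98.6, 118, 110 and 77.1 CPM in homozygous pools. Each heterozygous pool lay above every wt pool and below every homozygous pool, and the groups did not overlap. Means were 32.0 ± 5.47, 52.2 ± 1.85 and 101 ± 17.9 CPM (SD, n = 4 each). The slope was 0.83 ± 0.09 per allele, a rise of 1.78-fold per allele (edgeR, adjusted p = 0.0018), and 0.80 ± 0.09 with 10 pools (adjusted p = 9.72e-04). Homozygous pools were 3.16-fold above wt.

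Sirpa, the receptor for CD47 that inhibits phagocytosis by myeloid cells (chr2:129592835-129632228, plus strand), had 18.4, 20.2, 19.15 and 14.6 CPM in wt pools, 22.0, 40.1, 30.2 and 24.9 CPM in heterozygous pools, and 59.96, 51.4, 53.7 and 54.3 CPM in homozygous pools. The 3 genotypes did not overlap, although the lowest heterozygous pool, 22.0 CPM, was near the highest wt pool, 20.2 CPM. The slope was 0.80 ± 0.11 per allele (edgeR, adjusted p = 0.00953), and 0.80 ± 0.11 with 10 pools (adjusted p = 0.00652). Leaving out wt pool 1, wt pool 5, homozygous pool 1 or homozygous pool 4 took the adjusted p above the threshold, to 0.0524, 0.0620, 0.0718 and 0.0504 in that order.

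Barx1, a homeobox factor of mesenchyme in the stomach and face (chr13:48662998-48666507, plus strand), was barely detected in wt pools. It had 0.132, 0.329, 0.407 and 0 CPM in wt pools, 3.75, 0.697, 1.05 and 1.85 CPM in heterozygous pools, and 6.65, 7.82, 12.9 and 5.84 CPM in homozygous pools. These are 1, 3, 3 and 0 counts in wt pools, 35, 6, 6 and 14 counts in heterozygous pools and 59, 74, 75 and 34 counts in homozygous pools, so that each wt pool is at or below the 3 counts that a count of 0 allows. The genotypes did not overlap. The fitted slope of 2.51 ± 0.39 per allele (edgeR, adjusted p = 0.0371) depends on the prior count and is no bound on the change. It was 2.37 ± 0.46 with 10 pools, with an adjusted p of 0.144, and the call held in 2 of the 12 fits that leave out 1 pool, those without heterozygous pool 2 or heterozygous pool 4. Over all 12 leave-one-out fits its adjusted p was 0.0171 to 0.226.

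**Figure D1:**
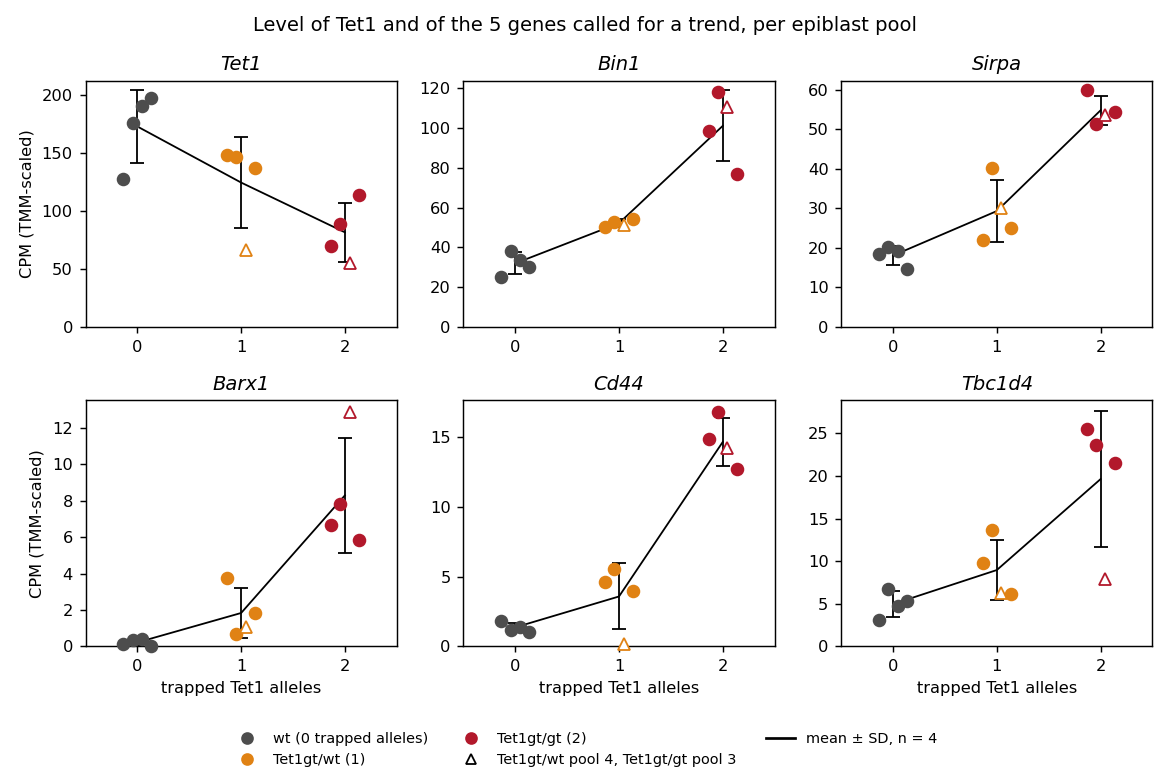
CPM of Tet1, Bin1, Sirpa, Barx1, Cd44 and Tbc1d4 in each epiblast pool against the number of trapped Tet1 alleles, with mean ± SD in black (n = 4 pools per genotype). Open triangles are heterozygous pool 4 and homozygous pool 3. Bin1, Sirpa and Barx1 rise by non-overlapping steps, while the open triangle of Cd44 at 1 allele lies at 0.175 CPM, below every wt pool.

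Cd44, the hyaluronan receptor of migratory and mesenchymal cells (chr2:102811141-102901665, minus strand), passed the main test with 10 pools and not with 12. It had 1.85, 1.21, 1.36 and 1.04 CPM in wt pools, 4.60, 5.58, 0.175 and 3.96 CPM in heterozygous pools, and 14.9, 16.8, 14.2 and 12.7 CPM in homozygous pools. Homozygous pools were 10.7-fold above wt and above every other pool, and heterozygous pool 4 was below every wt pool. The slope was 1.72 ± 0.30 per allele with 12 pools (edgeR, adjusted p = 0.108) and 1.71 ± 0.21 with 10 (adjusted p = 0.00207). On 12 pools DESeq2 called it (adjusted p = 6.94e-06), as did edgeR with correction for GC content and length (0.0202) or with the ribosomal protein covariate (0.0242). On the same pools limma-voom (0.319) and limma-trend (0.381) did not. Nor did edgeR with the Y-linked (0.0950), visceral endoderm (0.216) or decidua and blood (0.991) covariate. A replicate block of pool number did not call it without (0.9996) or with (0.244) GC and length correction. Of the 12 edgeR fits that leave out 1 pool, 1 called it.

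Tbc1d4, a Rab GTPase-activating protein that controls GLUT4 traffic in muscle and fat (chr14:101442360-101609191, minus strand), had 3.04, 6.70, 4.75 and 5.36 CPM in wt pools, 9.74, 13.6, 6.29 and 6.20 CPM in heterozygous pools, and 25.5, 23.7, 7.89 and 21.5 CPM in homozygous pools. Homozygous pool 3 lay among the heterozygous pools, and heterozygous pools 4 and 5 lay among the wt pools. Its slope was 0.99 ± 0.20 (edgeR, adjusted p = 0.344) with 12 pools and 1.11 ± 0.17 (adjusted p = 0.0204) with 10. On 12 pools DESeq2 called it (adjusted p = 0.00433), and edgeR with the decidua and blood covariate did not (0.991).

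Complete genotype order, with every heterozygous pool between every wt and every homozygous pool, was met by 3 rising genes of 12405 (0.0242%), which are the 3 genes already called, and by 0 falling genes (0.00%). With 10 pools it was met by 13 rising genes (0.103%) and 6 falling genes (0.0474%) of 12658. The rule is easier to meet with fewer pools, which have 4200 distinct assignments to the genotypes against 34650 for 12 pools. The 2 sets of counts are therefore not comparable. The 13 include Bin1, Sirpa, Barx1 and Cd44, and the 6 include Gldc, Qdpr, Rnf145 and Grk6, of which Gldc encodes the glycine decarboxylase of the glycine cleavage system. None of the 6 falling genes passed the adjusted edgeR test with 10 pools (adjusted p 0.169 to 0.588). DESeq2 on the same 10 pools, a fit added after seeing the data, called Gldc, Rnf145 and Qdpr lower and did not call Grk6. Its adjusted p for Gldc was 6.85e-04. Gldc had 533, 525, 544 and 480 CPM in wt pools, 460, 452, 377 and 459 CPM in heterozygous pools, and 425, 408, 317 and 392 CPM in homozygous pools. Only heterozygous pool 4, at 377 CPM, broke the order there. Its slope was -0.22 ± 0.06 with 12 pools (edgeR, adjusted p = 0.941) and -0.18 ± 0.04 with 10 (adjusted p = 0.207).

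The heterozygous level on the log2 scale stood at 42.5% of the way between wt and homozygous for Bin1, 43.6% for Sirpa, 40.9% for Cd44, 43.0% for Tbc1d4 and 43.6% for Tet1. These positions are a description only, since a straight-line test picks genes whose heterozygous level is intermediate. That of Barx1 is left out because it depends on the prior count. For Tet1 no single heterozygous pool was intermediate. Heterozygous pools 2, 3 and 5 (148, 147 and 137 CPM) lay within the wt range, and pool 4 (66.2 CPM) lay among the homozygous pools. For Cd44 heterozygous pool 4 (0.175 CPM) lay below every wt pool. Positions without heterozygous pool 4 and homozygous pool 3 are not given. Whether the levels of these genes follow that of Tet1 was not tested. The departure of the heterozygous pools from a straight line was -0.12 for Bin1 (95% interval -0.47 to 0.22) and -0.10 for Sirpa (-0.51 to 0.30). For Barx1, where it also depends on the prior count, it was 0.41 (-0.82 to 1.63). No gene departed from a straight line by the adjusted test (0 of 12405 in edgeR, 0.00%), though 236 (1.90%) had an unadjusted p under 0.05. With 10 pools the counts were 0 of 12658 (0.00%) and 543 (4.29%). DESeq2 and limma were not run on this term.

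Neither step alone called a gene (edgeR, 12 pools, 0 genes or 0.00% each). Heterozygous against wt had 298 genes (2.40%) at an unadjusted p under 0.05, and homozygous against heterozygous had 308 (2.48%). Bin1 was higher by 0.71 ± 0.19 at the first step and by 0.95 ± 0.19 at the second, with adjusted p of 0.982 and 0.906. For Barx1 the steps were 2.97 ± 0.80 and 2.15 ± 0.70, and for Sirpa 0.70 ± 0.22 and 0.90 ± 0.22. With 3 equally spaced genotypes of 4 pools, the slope rests on the outer genotypes and the heterozygous pools enter mainly through the spread. With the 4 heterozygous pools left out, Bin1, Sirpa and Cd44 were called, each at an adjusted p of 0.0200, and Barx1 was not (adjusted p = 0.0664).

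**Figure D2:**
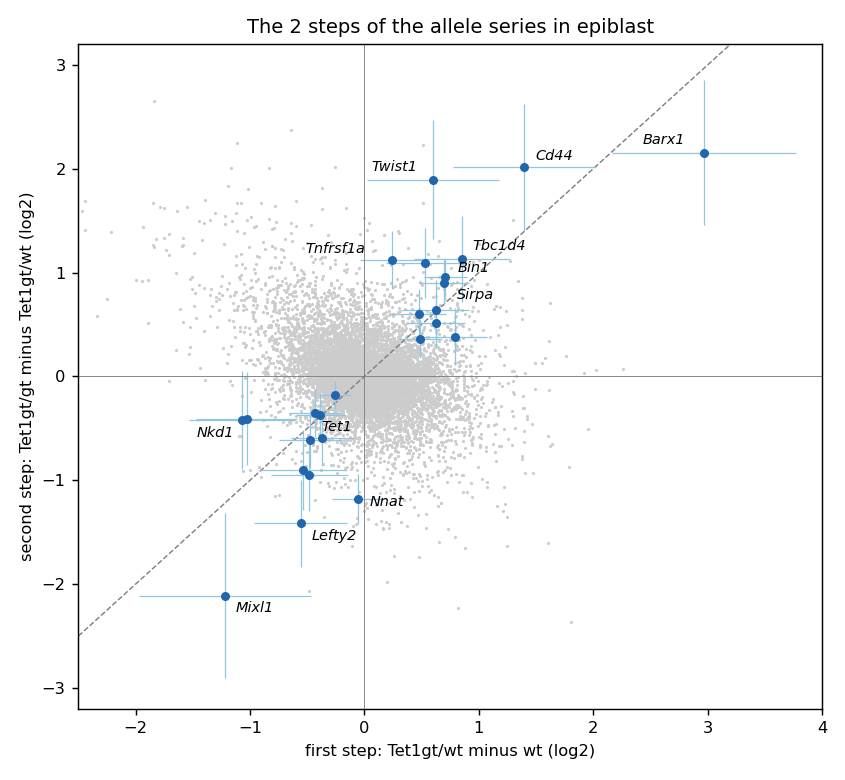
The second step (homozygous minus heterozygous, log2) against the first (heterozygous minus wt, log2) for the 25 genes named for their trend, as blue points ± SE, over the 11178 genes whose mean log2 CPM is at least 1 in grey (20 of them lie beyond the axes). On the dashed line both steps are equal. Bin1 (0.71 and 0.95) and Sirpa (0.70 and 0.90) lie near it, and Nnat (-0.05 and -1.18) lies on the vertical axis.

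Beyond the called genes, the positive slopes of smallest p with means in allele order were those of Map1a, Gm3383, Tnfrsf1a, Itga3, Crabp2, Twist1, Ppp1r1a and Prrt3. None passed the edgeR test (adjusted p 0.344 to 0.646 with 12 pools). Itga3, the laminin-binding integrin alpha 3 chain, had 50.3, 57.3, 60.4 and 53.1 CPM in wt pools, 53.9, 91.3, 81.1 and 84.2 CPM in heterozygous pools, and 92.8, 117, 96.9 and 91.7 CPM in homozygous pools. Heterozygous pool 2 lay among the wt pools, and the homozygous pools lay above all others (slope 0.42 ± 0.09). Crabp2, a retinoic acid carrier, had 20.5, 24.7, 14.5 and 17.7 CPM in wt pools, 25.4, 35.9, 26.0 and 20.2 CPM in heterozygous pools, and 48.3, 35.0, 41.5 and 38.1 CPM in homozygous pools, overlapping at both steps (slope 0.54 ± 0.12).

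For Twist1, Tnfrsf1a and Nnat the heterozygous level lay near that of wt. DESeq2 called 14 genes higher and 3 lower, and the 14 include the 8 genes just named. Twist1, a basic helix-loop-helix factor of mesenchyme, had 0.925, 0.549, 2.72 and 2.98 CPM in wt pools, 3.10, 3.02, 3.49 and 1.19 CPM in heterozygous pools, and 8.45, 7.82, 11.8 and 12.2 CPM in homozygous pools. Its heterozygous level stood at 24.0% of the way, and that of Tnfrsf1a, a receptor of tumour necrosis factor, at 17.7%. Nnat, an imprinted membrane proteolipid, had 36.6, 60.6, 49.0 and 38.3 CPM in wt pools, 44.1, 44.4, 55.4 and 34.2 CPM in heterozygous pools, and 15.2, 18.1, 24.2 and 21.3 CPM in homozygous pools. The heterozygous pools overlapped the wt pools, at 4.28% of the way, and all homozygous pools were below both. Its departure from a straight line was 0.56 (95% interval 0.13 to 0.99), which did not pass the adjusted test.

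Lefty2, Rsbn1 and Nnat were the 3 genes that DESeq2 called lower, with adjusted p of 0.00845, 0.0381 and 0.0494. Lefty2, a secreted antagonist of Nodal, had 36.5, 25.0, 48.5 and 22.6 CPM in wt pools, 29.6, 19.9, 8.56 and 31.8 CPM in heterozygous pools, and 6.09, 13.4, 5.32 and 8.76 CPM in homozygous pools. Homozygous pools lay below every wt pool, and heterozygous pool 4 lay among the homozygous pools. Heterozygous pools 2 and 5 lay within the wt range. Wt pools 1 and 4 (36.5 and 48.5 CPM) lay above wt pools 2 and 5 (25.0 and 22.6 CPM), a split described below for streak genes. Its slope was -0.98 ± 0.22 with 12 pools and -0.86 ± 0.19 with 10 (edgeR, adjusted p = 0.446 and 0.207). Other negative slopes of small p that edgeR did not call were those of Mixl1, Nkd1, Ablim1 and Plcb3, at -1.65, -0.72, -0.72 and -0.38.

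**Figure D3:**
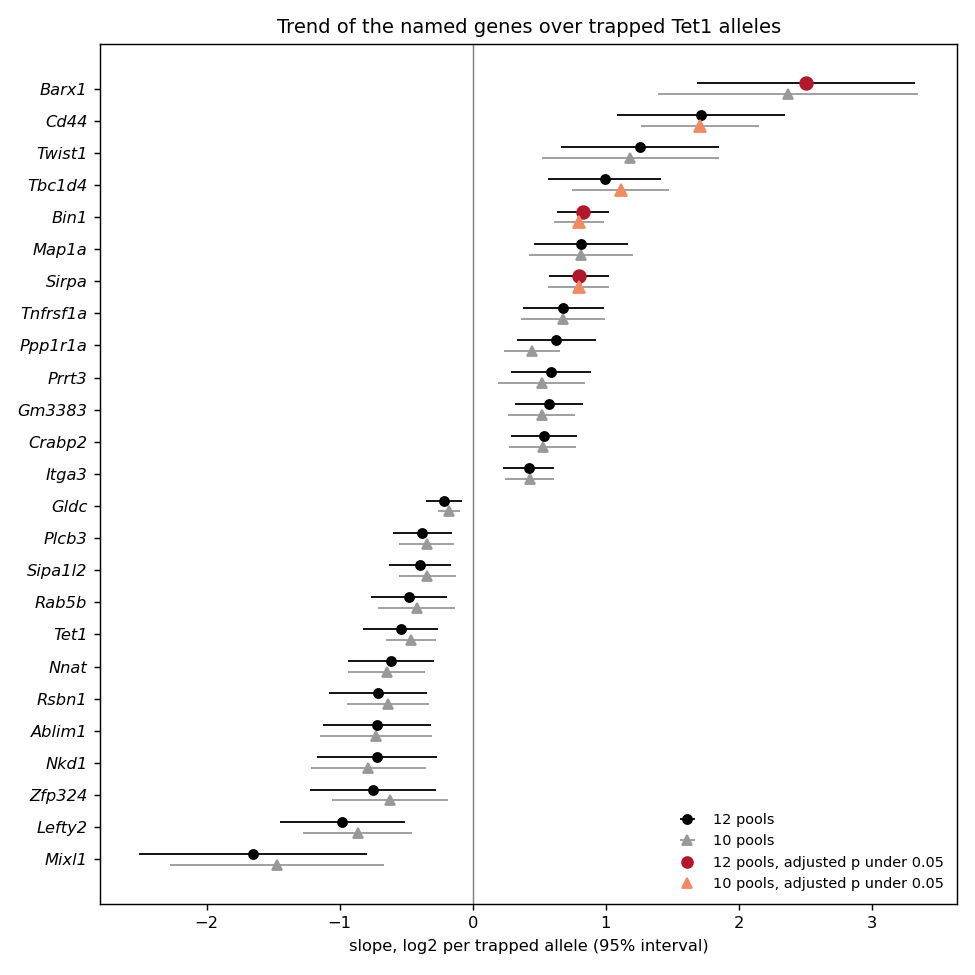
Slope of log2 expression per trapped allele for the 25 genes named for their trend, with 95% intervals, in 12 pools (circles) and in 10 pools (triangles). Coloured points pass an adjusted p of 0.05 in edgeR. Signs are the same in both fits for all 25 genes, and Barx1, Cd44 and Tbc1d4 are called in a single fit each.

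The primitive streak and mesoderm list had 14 of 18 tested members with negative slopes and a median slope of -0.24, where the median of all genes was 0.00. None was called (edgeR), and 4 had an unadjusted p under 0.05, against 2.01% of all genes in that direction. Mixl1, a homeobox gene of the streak, had 127, 16.4, 94.4 and 4.91 CPM in wt pools, 39.8, 21.3, 18.5 and 24.3 CPM in heterozygous pools, and 9.80, 3.70, 1.37 and 9.10 CPM in homozygous pools. The wt pools were themselves split, with pools 1 and 4 far above pools 2 and 5, and wt pool 5 lay among the homozygous pools. Markers of neighbouring tissue were split in the same way. Those of extra-embryonic ectoderm had a mean log2 CPM of 4.07 and 3.02 in wt pools 1 and 4 and of 0.22 and 1.01 in wt pools 2 and 5. Those of visceral endoderm had 5.30 and 2.67 in wt pools 1 and 4 and 1.10 and 1.03 in wt pools 2 and 5. Their part in the streak values was not tested. Mesp1, a factor of early mesoderm, had 24.2, 0, 34.8 and 0.595 CPM in wt pools, 2.46, 1.98, 9.61 and 0.791 CPM in heterozygous pools, and 0.451, 0, 0 and 0 CPM in homozygous pools, with the same split. Sp5, a WNT target, showed it as well, with 14.8, 3.29, 15.3 and 1.94 CPM in wt pools.

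Mesenchyme and adhesion genes held 4 members at an unadjusted p under 0.05, all with positive slopes, of 27 tested (14.8%, against 2.62% of all genes). With 10 pools there were 8 (29.6%, against 3.57%), of which Cd44 was called. The 4 with 12 pools were Cd44, Twist1, Vim, an intermediate filament of mesenchyme, and Col1a2, a chain of type I collagen. The slopes of Vim and Col1a2 were 0.31 and 0.61 with 12 pools. Vim had 31.3, 36.4, 34.6 and 34.4 CPM in wt pools, 29.9, 37.5, 33.7 and 39.8 CPM in heterozygous pools, and 53.0, 70.8, 53.2 and 33.0 CPM in homozygous pools. Homozygous pool 4 lay within the wt range. The median slope of this list was 0.07, near that of all genes. The summed level of maternal decidua and blood markers was also higher in each homozygous pool (22.0 to 76.3 CPM) than in any wt pool (12.4 to 21.4 CPM). By their mean log2 CPM, homozygous pool 4 (1.10) lay below wt pool 5 (1.20). The part of these markers in the slopes of this list was not tested.

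In the Nodal and TGF-beta list, 3 of 24 tested members had an unadjusted p under 0.05 and none was called. Lefty2 and Smad3, which transmits the signal, had slopes of -0.98 and -0.38, and Gdf3, a ligand, 0.68. That is 8.33% of the list lower and 4.17% higher, against 2.01% and 2.62% of all genes. With 10 pools it was 8.33% lower and 16.7% higher, against 3.67% and 3.57% of all genes. The WNT list held Nkd1, Sp5 and Axin2, slopes -0.72, -0.95 and -0.44, of which Nkd1 and Axin2 are feedback inhibitors, among 34 tested (8.82% lower, against 2.01% of all genes). Neural and ectoderm genes had 9 of 10 positive slopes (6303 of 12405 over all genes) and a median of 0.40. The mean level of this list varied between pools of 1 genotype by an SD of 0.56 log2. Crabp2 was the only member of the 10 at an unadjusted p under 0.05 (2.62% of all genes were so in that direction). Among 46 imprinted genes, Nnat, Sgce and Impact had slopes of -0.61, -1.50 and -0.57, 6.52% of the list at an unadjusted p under 0.05 against 2.01% of all genes, and none was called. The 20 Polycomb genes had 0 members at an unadjusted p under 0.05 and 0 calls by edgeR.

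The cytosolic ribosomal protein and oxidative phosphorylation lists moved with the pools that stand apart. All 79 ribosomal protein genes had positive slopes with 12 pools, 94.9% had means in allele order against 39.4% of all genes, and the median slope was 0.26. With 10 pools the median was 0.06 and 77 were positive. For 76 nuclear oxidative phosphorylation genes the median went to 0.03 with 10 pools, against 0.20 with 12. Ribosomal protein genes have many near-identical copies, so their counts are uncertain. In the same fit with the ribosomal protein level as a covariate, an alternative added after seeing the data, 7 genes were called higher, among them Bin1, Sirpa, Cd44, Tbc1d4 and Barx1.

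**Figure D4:**
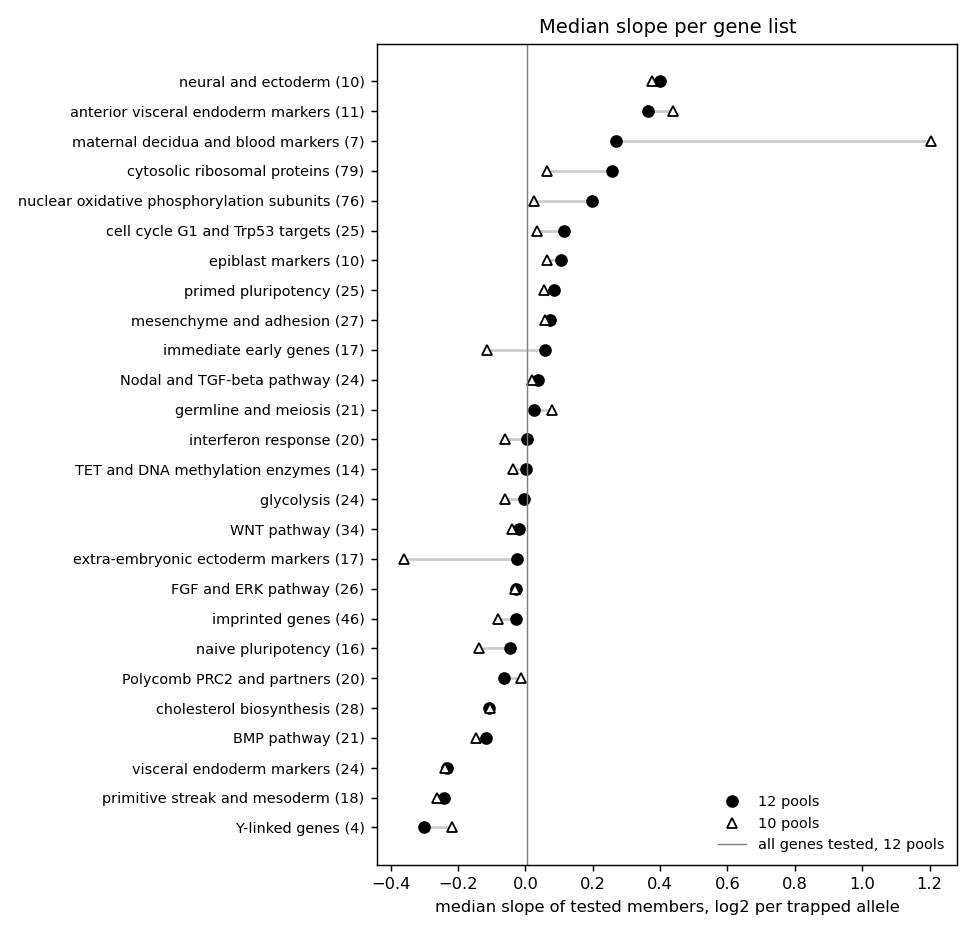
Median slope (log2 per trapped allele) of the tested members of each gene list, with the number tested in brackets, in 12 pools (filled circles) and 10 pools (open triangles). The grey line is the median of all genes tested. Ribosomal protein genes stand at 0.26 in 12 pools and at 0.06 in 10.

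Markers of neighbouring tissue were present in some pools. Visceral endoderm markers (24 tested genes) had a mean log2 CPM of 1.03 to 5.30 in wt pools, 0.08 to 0.92 in heterozygous pools and 1.11 to 3.98 in homozygous pools, so that they did not follow allele number. Apob, an apolipoprotein of that tissue, had 48.1, 6.26, 8.96 and 9.68 CPM in wt pools, 0, 0, 0.349 and 0 CPM in heterozygous pools, and 27.2, 25.6, 0 and 3.61 CPM in homozygous pools. In a fit that also holds the level of these markers, Bin1 and Sirpa kept an adjusted p of 0.00628 and 0.0243 (edgeR) and Barx1 had 0.0590.

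Maternal decidua and blood markers had a higher summed level in each homozygous pool than in any wt pool. By mean log2 CPM of these markers, which the covariate uses, homozygous pool 4 (1.10) lay below wt pool 5 (1.20). Of 31 listed, 7 were tested, and 6 of these had positive slopes. At an unadjusted p under 0.05 with a positive slope were 2 of 7 with 12 pools (28.6%, against 2.62% of all genes) and 4 of 9 with 10 pools (44.4%, against 3.57%), and edgeR called none of them. Their summed level was 12.4 to 21.4 CPM in wt pools, 14.1 to 33.1 CPM in heterozygous pools and 22.0 to 76.3 CPM in homozygous pools, the highest in homozygous pool 1. Hba-a2, an adult alpha globin whose near-identical copy makes its count uncertain, had 5.28, 0.110, 0 and 0.595 CPM in wt pools, 1.61, 0.581, 1.40 and 0.660 CPM in heterozygous pools, and 18.1, 6.76, 2.23 and 3.61 CPM in homozygous pools (slope 1.21). Bmp2, a ligand made by decidua and also by visceral endoderm, had 2.25, 0.220, 1.49 and 0.744 CPM in wt pools, 0, 1.63, 0.175 and 0 CPM in heterozygous pools, and 13.2, 13.8, 1.54 and 0.344 CPM in homozygous pools (slope 1.35). The highest values of both genes were in homozygous pools, and the genotypes overlapped. Prl8a2, a prolactin-family gene of decidua, had a slope of 1.13. The defining leukocyte marker Ptprc was at 0 in 10 of 12 pools and reached at most 5 counts, and C1qa and Gzme were at 0 in all 12. With this marker level as a covariate, an alternative added after seeing the data, no gene was called (0 in edgeR, where 366 genes had an unadjusted p under 0.05) and the adjusted p of the called genes is that given above. Without homozygous pool 1 Bin1 had an adjusted p of 0.0119 and Sirpa one of 0.0718. The part of these markers in the trend of Bin1, Sirpa and Barx1 was not tested further.

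**Figure D5:**
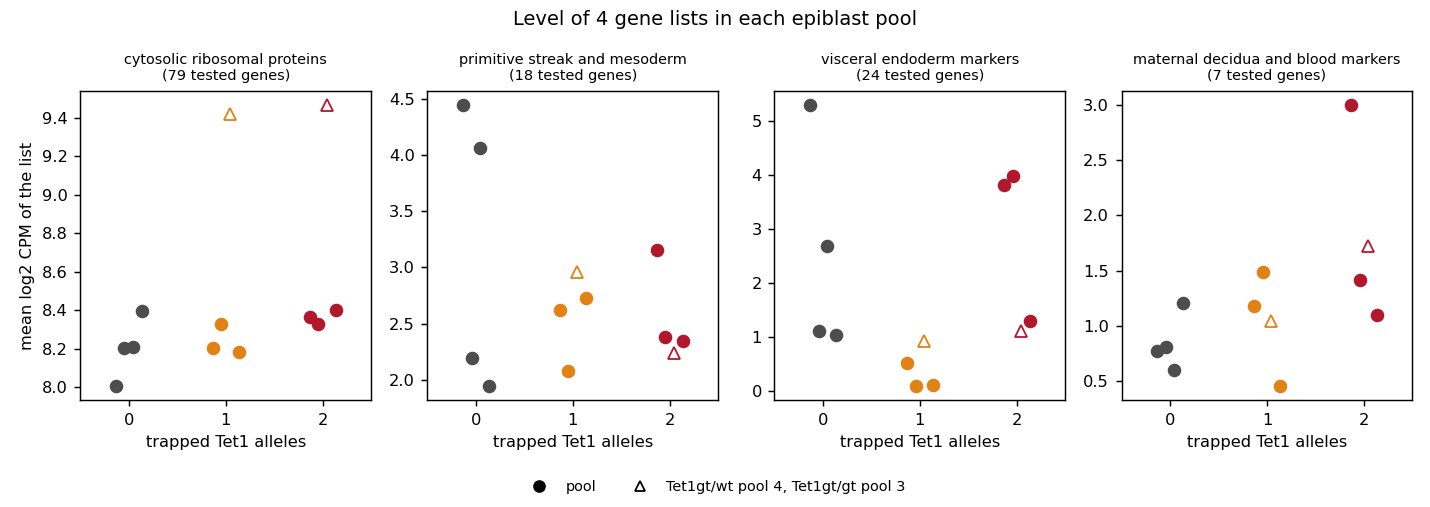
Mean log2 CPM of 4 gene lists in each epiblast pool against the number of trapped Tet1 alleles. Open triangles are heterozygous pool 4 and homozygous pool 3, which lie at 9.42 and 9.47 for ribosomal proteins, above the other 10 pools at 8.01 to 8.40. Wt pools split for primitive streak genes.

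The trend was set against that of the 11 extra-embryonic pools of the same study to see where it differed. In the fit of all 23 pools 0 genes of 13595 (0.00%) had a different slope by edgeR, and 488 (3.59%) reached an unadjusted p under 0.05. Bin1 had a slope in epiblast minus that in extra-embryonic tissue of 0.47 ± 0.20 (adjusted p = 1.00), Sirpa 0.82 ± 0.52 and Barx1 2.00 ± 0.60, so none is shown to be particular to the epiblast. Without heterozygous pool 4, homozygous pool 3 and extra-embryonic homozygous pool 3, 3 of 13961 genes (0.0215%) differed, Apba2, Emilin3 and Itga3. Itga3 had a slope difference of 0.76 ± 0.12 (adjusted p = 0.0307), and its CPM in extra-embryonic tissue were 84.1, 82.3, 83.8 and 81.8 in wt pools, 74.4, 73.4, 79.5 and 55.5 in heterozygous pools, and 59.5, 75.0 and 44.3 in homozygous pools. In extra-embryonic tissue, 1 gene of 12355 (0.00809%) was called lower, Tet1 itself (-0.90 ± 0.12, adjusted p = 0.0176). Epiblast and extra-embryonic pools share litters in 3 of 4 numbered replicates, and that link was not modelled.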

How the data were processed

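RNA of each pool (1 to 10 ng, integrity number above 8) was amplified without molecular identifiers, so floors cover counting error only, and sequenced in single reads of 75 bases, per the labels' protocols. Trimming used cutadapt 1.7.1 and FastX 0.0.13, filtering ShortRead 1.16.3 and alignment TopHat2 2.0.12, with mm10 as the build, per the submitters' processing notes. How reads were assigned to genes, and whether strand was used, is not given in the sources used, so a gene cannot be told apart from an overlapping or antisense one. The table deposited by the authors holds raw, whole-number counts per gene. Of 23723 symbols in it, 98.5% were matched to GENCODE M21 for positions, and 27 lines hold symbols altered into dates.

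The main test was the two-sided slope of log2 expression on 0, 1 or 2 trapped alleles in edgeR 4.0.16 under R 4.3.3 (filterByExpr minimum count 10, minimum total 15, TMM, glmQLFit, glmQLFTest), with Benjamini-Hochberg adjustment over all genes and a threshold of 0.05. CPM are TMM-scaled, and a prior count of 2 was added for log2 levels. Alternatives were DESeq2 1.42.0, limma 3.58.1, other scalings and filters, covariates, leaving out each pool, a block of pool number, and GC and length correction. The procedure was tested on simulated data. Pools of 1 genotype differed from each other by 12.3 to 101 times counting noise (chi-square over its degrees of freedom), so none is the same library counted again. This measure cannot tell separate pools from separate amplifications of 1 RNA.

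Members and lists were chosen with earlier results of these data known. Named genes are Tet1, Tet2, Tet3, 4 DNA methyltransferase genes and Uhrf1, the called genes, up to 12 rises and 12 falls of smallest trend p whose mean log2 CPM is at least 1, with means in allele order and one sign in both fits, 3 members of each list, 3 genes each way for the departure and genes in complete genotype order. The other genes in complete order with 10 pools, and Col1a2, Apba2 and Emilin3, were named after their values were seen.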

Additional observations from a re-analysis of the deposited data

Results flagged for a closer look

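Tet1 in heterozygous epiblast pool 4 had 66.2 CPM, far from the other 3 heterozygous pools, of which the nearest had 137 CPM and the highest 148 CPM. It was 1 of 18 groups of pools examined for such a gap, and chance flags about 1 group in 20. The same pool stands apart in its ribosomal protein level (9.42 log2 CPM), and the part of that difference in its Tet1 level was not tested.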

How the results depend on the processing

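Slopes of Bin1, Sirpa, Barx1, Cd44, Tbc1d4 and Tet1 kept their sign in all 30 alternatives. Bin1 was past the threshold in 28 of them, Sirpa in 23, Barx1 in 10, Cd44 in 7, Tbc1d4 in 4 and Tet1 in 1. The 3 genes called higher became 14 under DESeq2 and 26 under DESeq2 with 10 pools, 7 with the ribosomal protein covariate, and 0 with the decidua and blood covariate. Genes called lower, 0 in the main test, were 3 under DESeq2 and 12 under DESeq2 with 10 pools. Leaving out 1 pool gave 1 to 4 called higher, the same range for called genes with means in allele order, 3 to 9 rising and 0 to 4 falling genes in complete order. With 10 pools complete order held for 13 rising and 6 falling genes. Complete order is easier to meet with fewer pools, so these counts are not comparable with those of 12 pools. The slope difference between tissues was called for 3 genes without the 3 pools that stand apart. The 10-pool DESeq2 fit and both of these covariates were chosen after seeing the data. Correlations did not settle whether pool numbers pair the epiblast pools. Of 9 same-numbered pairs 4 correlated over 0.1 (range -0.48 to 0.26, against -0.39 to 0.67 for other pairs). Of 12 pools 5 correlated best with a pool of their own number. With pool number as a replicate block 0 genes were called by edgeR, 322 having an unadjusted p under 0.05, and Bin1 had an adjusted p of 0.135, and 1 gene with the block and GC and length correction. The cause of these shifts was not tested. Of 750 alternative values for 25 genes, 688 kept their direction and side of the threshold, 29 fell short of it, 33 newly passed it and 0 reversed. List medians have no threshold. With 10 pools 3 of 26 changed sign, to -0.11 from 0.06 for immediate early genes, to -0.06 from 0.00 for the interferon response and to -0.04 from 0.00 for TET and DNA methylation enzymes, and the decidua and blood median was 1.20 with 10 pools and 0.27 with 12. Counts near the floor of 3, as for Barx1 in wt pools, limit what depth can show.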

Other observations

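The genes of smallest p for a departure from a straight line, none of which passed the adjusted test, had heterozygous pools outside the other genotypes rather than between them. Usf1, a basic helix-loop-helix factor, had 98.8, 101, 111 and 89.0 CPM in wt pools, 154, 176, 157 and 107 CPM in heterozygous pools, and 80.7, 109, 125.2 and 98.8 CPM in homozygous pools. All but heterozygous pool 5 exceeded every other pool. Herc6, an interferon-induced ubiquitin ligase, had 3.43, 4.50, 7.61 and 7.89 CPM in wt pools, 1.07, 0.581, 0.524 and 0.660 CPM in heterozygous pools, and 2.82, 1.27, 3.09 and 4.81 CPM in homozygous pools. Its heterozygous pools lay below all others. Afp, a marker of visceral endoderm, had 19.8, 1.87, 7.88 and 2.53 CPM in wt pools, was at 0 in all 4 heterozygous pools, and had 28.1, 27.3, 0.686 and 1.03 CPM in homozygous pools.

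Cholesterol biosynthesis genes had negative slopes in 24 of 28 tested members with 12 pools, with a median of -0.11, and in 22 of 28 with 10 pools, with a median of -0.10, and edgeR called 0 of them. Lss, the lanosterol synthase, had a slope of -0.38 and Nsdhl, a sterol dehydrogenase, one of -0.30. Extra-embryonic ectoderm markers had a mean log2 CPM of 0.22 to 4.07 in wt pools, 0.25 to 4.52 in heterozygous pools and 0.46 to 3.86 in homozygous pools, a spread within each genotype that exceeds any difference between them.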
